A study of Xenopus laevis with 3 samples.

Results

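A microRNA precursor is a hairpin with a 5p and a 3p arm, and the measure described here is the share of reads that each arm takes within a precursor. The members are 25 precursors for which the deposited table lists both arms of the green anole lizard (prefix aca) under the same name and for which the 3 libraries together hold at least 30 counts. The table lists 75 such arm pairs under any of 15 species prefixes, 69 of them with a sum of at least 30, and 1272 mature microRNA entries in all. Anole names were used because this annotation marks the arms by suffix: of its 140 entries 67 end in 5p, 57 in 3p and 16 carry no suffix. The sequenced animals were Xenopus laevis, so a member is a lizard sequence to which frog reads were counted.

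The study compared the accessory olfactory bulb, the brain region that receives vomeronasal input, of larvae at stage 45 (15 days old) reared as orphans, with siblings or with non-siblings. Each condition had 1 library from dissected neuronal tissue, and no genotype, strain or drug is given for any of them. The labels name 15 larvae without saying whether these are per condition or in all, give no rearing details, and name an mRNA kit for the libraries although the samples are described as microRNA, so the library method is not settled. Conditions cannot be tested against each other with 1 library each, and every interval below covers counting error only.

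Dicer cuts the hairpin into a short duplex, and Argonaute keeps one strand as the guide while the other, the passenger, is mostly degraded. The strand whose 5′ end is less tightly paired is favoured, as is a strand that begins with U. The choice decides which messages are repressed, because targets are recognised through the seed, bases 2 to 8 of the loaded arm, and the arms of a precursor carry different seeds. In some precursors both arms are loaded, and the balance can differ between tissues.

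The arms of 5 precursors called in the comparisons with sibling are shown first, because the results turn on them. They stand as the deposited table gives them, 5′ to 3′ with the seed in capitals.
aca-miR-128-5p: gGGGGCCGuuacacuguaaga
aca-miR-128-3p: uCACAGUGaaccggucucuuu
aca-miR-18a-5p: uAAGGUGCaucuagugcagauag
aca-miR-18a-3p: aCUGCCCUaagugcuccuucug
aca-miR-200b-5p: cAUCUUACugggcagcauug
aca-miR-200b-3p: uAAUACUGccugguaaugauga
aca-miR-210-5p: aGCCACUGacuaacgcacauug
aca-miR-210-3p: cUGUGCGUgugacagcggcua
aca-miR-182-5p: uUUGGCAAugguagaacucaca
aca-miR-182-3p: uGGUUCUAgacuugccaacu

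The counts of all entries summed to 22538325 in orphan, 865654 in sibling and 5188106 in non-sibling, which is 26.0 times the sibling depth for orphan and 5.99 times for non-sibling. Reads are counted under several species names, so these totals are a relative depth. The 25 pairs held 4.56% of the counts in orphan, 2.44% in sibling and 4.32% in non-sibling, and most of that was miR-182. Without miR-182 the shares were 1.01%, 0.639% and 1.51%. A pair had between 69 and 799993 counts in orphan (median 3331), between 12 and 145896 in non-sibling (median 1456) and between 2 and 15570 in sibling (median 76). Only 8 pairs had more than 3 counts in both arms in sibling: miR-182, miR-128, miR-200b, miR-214, miR-132, miR-210, miR-148b and miR-18a. Of 8 neuronal marker microRNAs, 8 had at least 10 counts in orphan, 6 in sibling and 8 in non-sibling, together 1.001%, 0.659% and 1.63% of the counts. Markers of sensory organs (3 of 3 in each library, 5.08%, 2.80% and 3.75%), epithelium (5 of 5, 0.482%, 0.499% and 1.003%), gut (3 of 3, 0.0433%, 0.108% and 0.170%) and muscle (4 of 4, 0.288%, 0.203% and 0.194%) were present too. So were those of skeletal tissue and mesenchyme (3 of 3, 0.981%, 1.33% and 1.20%), above the neuronal markers in sibling, and of vessels (1 of 1, 0.0781%, 0.0630% and 0.0586%). Of 2 oligodendrocyte markers, 1 had at least 10 counts in orphan, none in sibling and 1 in non-sibling (together 0.000311%, 0.000116% and 0.000270%). Of 4 blood markers, 4 had at least 10 counts in orphan, none in sibling and 3 in non-sibling (together 0.00330%, 0.00162% and 0.00707%). All 4 had some counts in sibling, namely 3 for miR-451, 7 for miR-144, 3 for miR-223 and 1 for miR-142. A limit of 10 counts is harder to reach at the sibling depth. The liver microRNA miR-122 had 1, 5 and 22 counts. The part of these markers in the arm shares was not tested.

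On the anole rows most precursors were read almost entirely from a single arm, and no pair switched its dominant arm. An arm was called dominant where the 95% Clopper-Pearson interval of the 5p share excluded 50%. In orphan the 5p arm was dominant in 8 pairs and the 3p arm in 17, against 43.5% and 56.5% of the 69 pairs of any prefix. In sibling 6 pairs were 5p-dominant and 16 were 3p-dominant (background 33.3% and 52.2%), and miR-18a, miR-144 and miR-153 were neither. In non-sibling 8 were 5p-dominant and 16 were 3p-dominant (background 42% and 53.6%), and miR-153 was neither. The pairs of other prefixes are partly the same microRNAs counted again, so this background is not independent of the members. On the anole rows no pair had the 5p arm dominant in one library and the 3p arm in another, and only miR-18a had its 5p share above 50% in some libraries and below it in another. With the highest row of any species for each arm, miR-301b was 5p-dominant in orphan and 3p-dominant in the other libraries, as given further on. The minor arm had a median share of 1.84% in orphan, 0.0257% in sibling and 0.668% in non-sibling, beside 4.17%, 1.04% and 2.91% for the other 44 pairs. It held under 1% of the pair in 11, 15 and 14 of the 25 members, in each library a larger part than among the other 44 pairs. The low sibling median includes 12 pairs with no minor-arm count, against 1 in orphan and 3 in non-sibling, at a far lower depth.

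**Figure D1:**
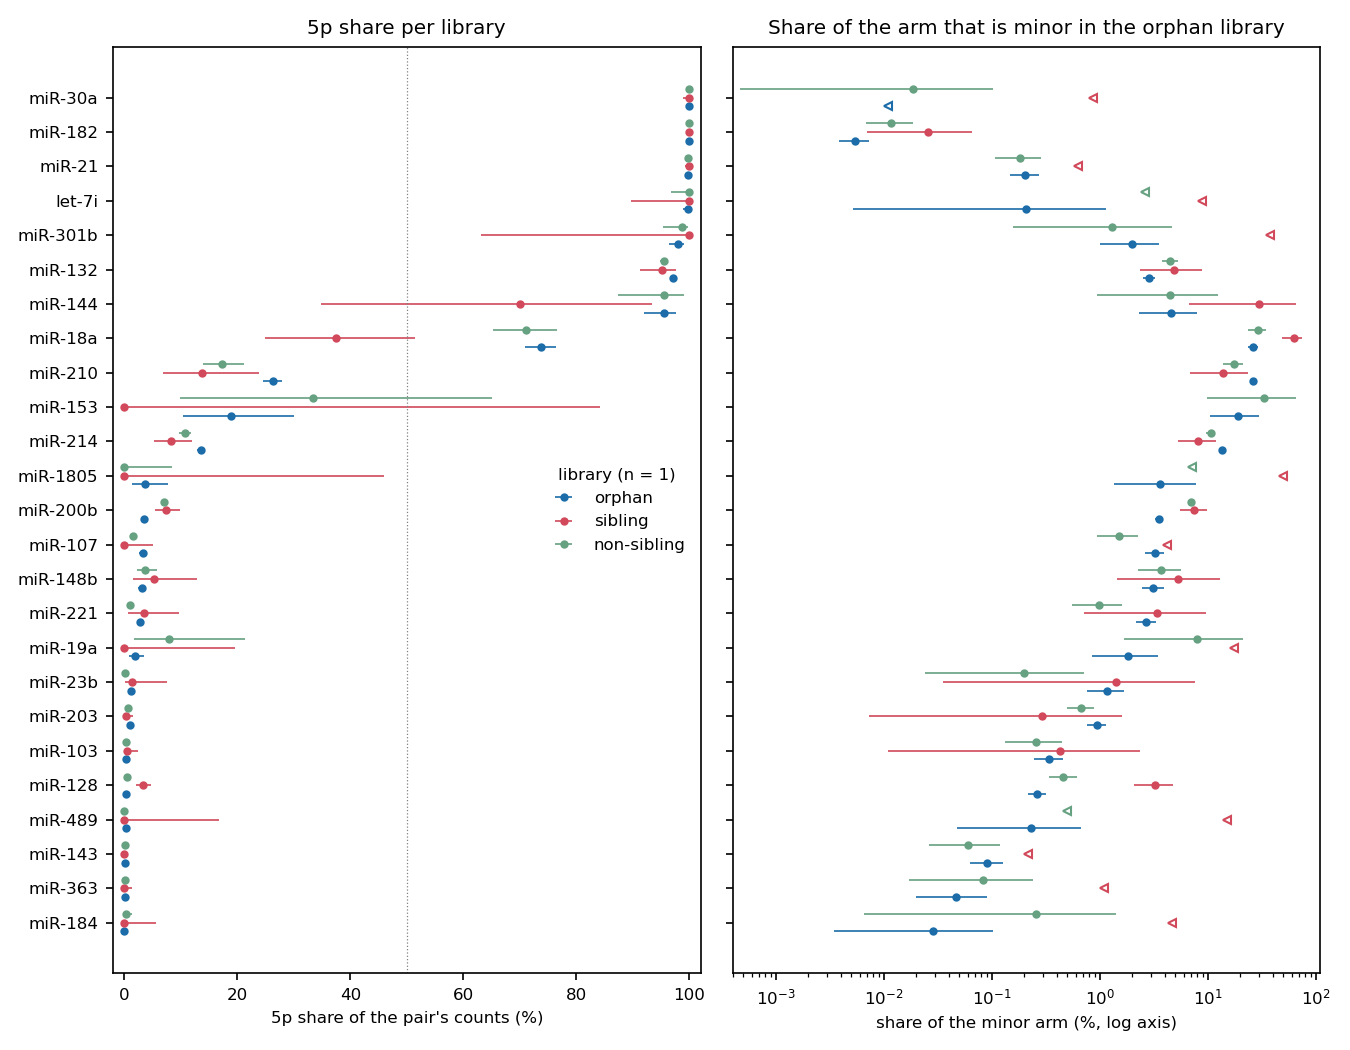
5p share of each of the 25 pairs (left, % on a linear axis) and share of the arm that is minor in the orphan library (right, % on a log axis), with 95% Clopper-Pearson intervals, 1 library per condition. Open triangles mark the limit that a minor-arm count of 0 allows (3 counts of the pair), left out where the pair has 3 counts or fewer. Nearly all pairs lie at either edge of the left panel, and miR-18a alone crosses 50%.

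The 5p-dominant precursors included the most abundant member. The pair of miR-182, a microRNA of sensory organs made from a cluster with miR-183 and miR-96, had 799950 counts of the 5p and 43 of the 3p arm in orphan, 15566 and 4 in sibling, and 145879 and 17 in non-sibling. The 3p arm thus took 0.00538% (0.00389–0.00724), 0.0257% (0.00700–0.0658) and 0.0117% (0.00679–0.0187). For miR-21, a widespread microRNA linked to growth and injury, the 5p and 3p counts were 20081 and 41, 480 and 0, and 9952 and 18 in orphan, sibling and non-sibling. Both precursors were at the one-armed extreme in every library. The anole 3p row of miR-30a, of a widespread family, had no count in orphan and sibling and 1 in non-sibling, beside 27323, 347 and 5386 counts of the 5p row; a count of 0 allows up to 0.0110% and 0.865%. For let-7i, of the let-7 family that marks differentiating cells, the 5p row had 484, 34 and 115 counts and the 3p row 1, 0 and 0. Which row is read changes the picture for miR-30a, as given further on.

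Less lopsided 5p-dominant pairs were miR-132, miR-301b, miR-144 and miR-18a. The values of miR-132 and miR-301b below are those of the anole rows and differ widely on rows of other species, where the 5p share in orphan was 65.5% and 58.7%. The 5p share of miR-132, a microRNA that neuronal activity induces in mammals, was 97.1% in orphan (7970 against 236 counts), 95.1% in sibling (196 against 10) and 95.5% in non-sibling (3134 against 147). That of miR-301b, of the miR-130 family, was 98.0% in orphan (542 against 11) and 98.7% in non-sibling (151 against 2), and all 8 sibling counts were 5p. For miR-144, an erythroid microRNA, the 5p share was 95.5% in orphan (232 against 11) and 95.5% in non-sibling (64 against 3), and sibling had 7 against 3 counts. The sibling interval of miR-144, 34.8 to 93.3%, rests on 10 counts and includes 50%.

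Among the 3p-dominant precursors several kept less than 1% for the 5p arm in orphan and non-sibling. The 5p and 3p counts of miR-143, a microRNA of smooth muscle and mesenchyme, were 35 and 38516 in orphan (5p share 0.0908%), 0 and 1396 in sibling (at most 0.215%) and 8 and 13220 in non-sibling (0.0605%). Those of miR-363, from a paralog of the miR-17-92 cluster, were 8 and 17274, 0 and 272, and 3 and 3620. The epithelial miR-184 had 2 and 6980, 0 and 64, and 1 and 389. On the anole rows these 3 pairs were nearly single-armed. For miR-203, a microRNA of skin epithelium, the 5p share was 0.943% in orphan, 0.289% in sibling (1 of 346 counts) and 0.668% in non-sibling. For miR-489 there were 3 and 1298 counts in orphan, 0 and 20 in sibling, and 0 and 609 in non-sibling.

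The paralogs miR-103 and miR-107, which sit in introns of pantothenate kinase genes in vertebrates, share the seed of each arm, GCUUCUU on 5p and GCAGCAU on 3p.
aca-miR-103-5p: aGCUUCUUuacagugcugccu
aca-miR-107-5p: aGCUUCUUuacaguguugcc
aca-miR-103-3p: aGCAGCAUuguacagggcuaug
aca-miR-107-3p: aGCAGCAUuguacagggcuauc
They are so alike that reads could be split between them, and their shares are uncertain for that reason. The 5p arm of miR-103 had 42 counts against 12326 in orphan (0.340%), 1 against 231 in sibling and 12 against 4642 in non-sibling. That of miR-107 had 100 against 2992 (3.23%), 0 against 72 (at most 4.17%) and 22 against 1434 (1.51%). The 5p share was thus higher in miR-107 than in miR-103 in orphan and non-sibling. These were the only seeds shared among the 50 arms, which carried 48 distinct seeds.

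In other 3p-dominant pairs the 5p arm held more than 1% in orphan. For miR-221, a microRNA of vessels and blood, it was 2.70% in orphan (90 against 3241), 3.41% in sibling (3 against 85) and 0.978% in non-sibling (15 against 1519). For miR-148b it was 3.11% (75 against 2334), 5.26% (4 against 72) and 3.69% (19 against 496). For miR-23b, of a cluster with miR-27b and miR-24, it was 1.15% (28 against 2399), 1.41% (1 against 70) and 0.200% (2 against 997). The 5p arm of miR-19a, of the miR-17-92 cluster, had 9 counts against 481 in orphan (1.84%), 0 against 17 in sibling and 3 against 35 in non-sibling (7.89%). None of these came near an even balance. The mesenchymal miR-214 held 13.6% in orphan (1196 against 7610), 8.19% in sibling (24 against 269) and 10.7% in non-sibling (386 against 3229), and its intervals in orphan (12.9 to 14.3%) and in non-sibling (9.69 to 11.7%) did not overlap.

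The pairs with the fewest counts were miR-153, a neuronal microRNA, with a sum of 83, and miR-1805 with 213. The 5p share of miR-153 was 18.8% in orphan (13 against 56, interval 10.4 to 30.1%) and 33.3% in non-sibling (4 against 8, interval 9.92 to 65.1%), and sibling had 0 against 2 counts. For miR-1805 the 5p and 3p counts were 6 and 159, 0 and 6, and 0 and 42. The 1 anole pair below the minimum sum was miR-460b with 14 counts, 12 and 1 in orphan, none in sibling, and 1 and 0 in non-sibling. At these depths the balance in sibling could not be measured.

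For 24 of the 25 precursors the arm usually taken as the guide in vertebrates was listed from general knowledge; miR-1805 was not listed. The dominant arm was the listed arm in 21 pairs in orphan, 19 in sibling and 20 in non-sibling. In orphan the other arm was dominant in 3, namely miR-132, miR-301b and miR-144, which are listed as 3p. Of these, miR-132 and miR-301b had shares whose size depended on which species' row was read, as described after the comparisons. In the highest row of any species both were still 5p-dominant in orphan. On those rows miR-132 was 5p-dominant in all 3 libraries, whereas miR-301b was 3p-dominant in sibling and non-sibling.

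Orphan and sibling were compared first. The clearest differences were in miR-128, whose 5p arm took a larger share in sibling, and in miR-18a, whose 3p arm did. A difference was called where the odds of 5p to 3p counts differed by at least 2-fold and the exact conditional 95% interval of the odds ratio excluded 1. The size of a library cancels in these odds. The 5p odds were higher in orphan in 4 pairs, against 17.4% of all 69 pairs, and lower in 2, against 5.8%. Among the other 44 pairs 8 were higher and 2 lower. The remaining 19 members were not called, and 12 of the 25 had an arm with no count in at least 1 of these libraries. Their ratio was 0, infinite or undefined. Such a pair could still be called by its interval, as some of the other 44 were, but no member was. Over the 13 without such a gap the median log2 odds ratio was 0.79, beside 0.50 for the pairs of other prefixes. The shares of called members were near the background, so the counts alone set the members apart from the rest in neither direction. Below 2-fold, the interval also excluded 1 for miR-214 (1.76 times).

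The pair of miR-128, a brain-enriched microRNA, had 39019 counts in orphan, of which 38916 were 3p. In sibling it had 24 counts of the 5p and 718 of the 3p arm, and in non-sibling 49 and 10591. The 5p share was 0.264% (0.216–0.320) in orphan, 3.23% (2.08–4.77) in sibling and 0.461% (0.341–0.608) in non-sibling. The sibling library was high, and its interval overlapped neither of the others. Its 5p odds were 12.6 times (7.69–19.98) those in orphan and 7.22 times (4.21–12.1) those in non-sibling. The 3p arm stayed dominant throughout, and the shift rests on 24 reads of a 5p row that no other species lists under this name. The table lists the 5p arm under locus 1 and the 3p arm under locus 2 of this microRNA; a frog 3p read cannot be assigned to a locus, so this share is not that of a single hairpin. The same holds for miR-153, with 5p under locus 2 and 3p under locus 1.

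The miR-18a precursor, of the miR-17-92 cluster that drives proliferation, had 746 counts of the 5p and 265 of the 3p arm in orphan, 21 and 35 in sibling, and 185 and 75 in non-sibling. Its 5p share was 73.8% (71.0–76.5) in orphan, 37.5% (24.9–51.5) in sibling and 71.2% (65.2–76.6) in non-sibling. Its 5p share in sibling alone lay below 50%, with an interval that just reached it. The 5p odds in orphan were 4.69 times (2.60–8.63) those in sibling. The X. tropicalis rows gave the same counts for both arms of miR-18a in all 3 libraries. Their 5p sequence is identical and their 3p sequence is contained in the anole one. The same reads are thus counted again, and the match is no separate evidence.

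For miR-210, a microRNA induced by low oxygen, the 5p and 3p counts were 726 and 2038 in orphan, 10 and 63 in sibling, and 75 and 359 in non-sibling. The 5p share was 26.3% (24.6–27.9), 13.7% (6.77–23.8) and 17.3% (13.8–21.2), high in orphan only. The odds in orphan were 2.24 times (1.14–4.93) those in sibling, and 1.71 times those in non-sibling, which is under 2-fold although the interval excluded 1. The odds of miR-144 were 9.04 times (1.31–46.1) those in sibling and those of miR-182 4.78 times (1.25–13.2). Those 2 ratios rest on 3 and 4 sibling reads of the 3p arm.

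The miR-200b pair, of the epithelial family that represses the Zeb factors, moved the other way. Its 5p and 3p counts were 708 and 19436 in orphan, 46 and 571 in sibling, and 693 and 9161 in non-sibling. The 5p share was 3.51% (3.26–3.78), 7.46% (5.51–9.82) and 7.03% (6.54–7.56). Here orphan was the low library, and sibling and non-sibling had overlapping intervals. The epithelial marker microRNAs together were highest in non-sibling, and their part in this result was not tested. The 5p odds in sibling were 2.21 times (1.59–3.02) those in orphan, and those in non-sibling 2.08 times (1.86–2.32). The second of these ratios rests on 708 and 693 reads of the 5p arm and is the called difference with the most reads in its rarer arm. On the authors' quantile-normalized values its log2 odds ratio, orphan over non-sibling, was -0.73 in place of -1.05 and no longer reached 2-fold.

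**Figure D2:**
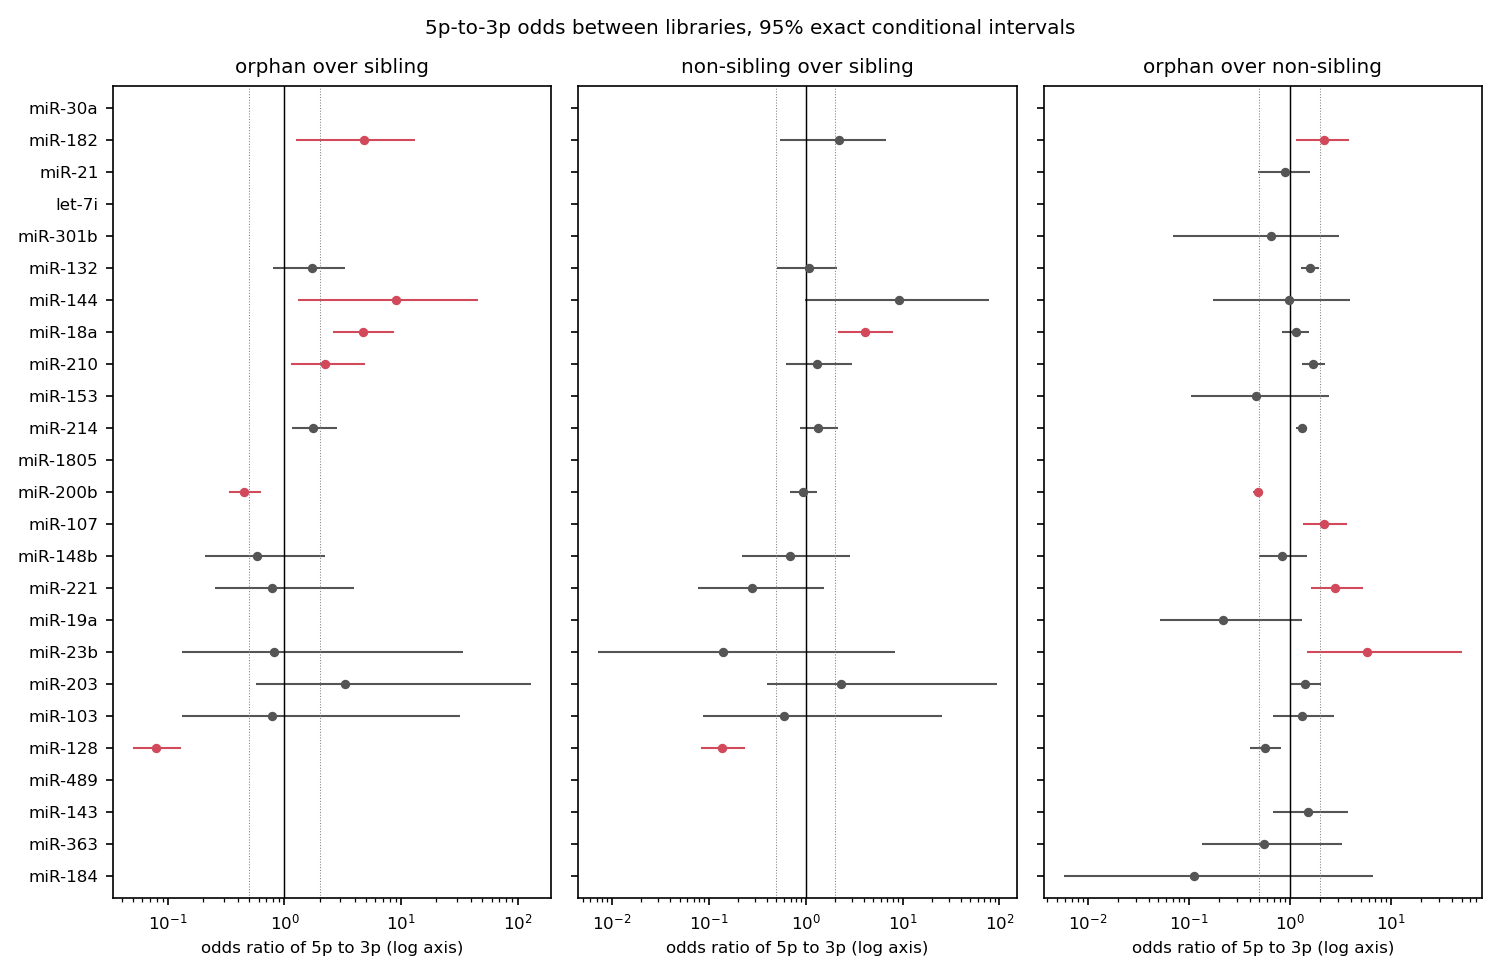
Ratio of the 5p-to-3p odds between libraries for the members with counts in both arms of both libraries (log axis, 95% exact conditional intervals); pairs with an arm at 0 are left blank. Red marks a ratio of 2 or more, or of 0.5 or less, whose interval excludes 1 (solid line 1, dotted lines 0.5 and 2). In the left panel miR-128 lies far left at 0.0792, and miR-18a lies right at 4.69 with a narrow interval.

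Non-sibling was set beside sibling by the same rule, and the sibling library is shared with the comparison above, so the results are not independent of it. The odds were higher in non-sibling in 1 pair, miR-18a (4.11 times, 2.16–7.92), against 7.25% of the 69 pairs. They were lower in 1 pair, miR-128, against 5.8%. The other 23 members were not called, 12 had an arm at 0, and the median log2 odds ratio of the 13 others was 0.18, beside 0.23 for the pairs of other prefixes. Here the share of called members was below the background in each direction.

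Orphan and non-sibling, the deeper libraries, differed partly in other precursors. Both miR-182 and miR-200b were called in the same direction as for orphan over sibling, a comparison that shares the orphan library. The 5p odds were higher in orphan in 4 pairs, against 13% of the 69, and lower in 1, miR-200b, against 5.8%. The 4 were miR-182 (2.17 times, 1.16–3.88), miR-221 (2.81 times, 1.61–5.25), miR-107 (2.18 times, 1.36–3.65) and miR-23b (5.82 times, 1.46–50.5). All of them but miR-182 are 3p-dominant, and the miR-23b ratio rests on 28 and 2 reads of the 5p arm. On quantile-normalized values the log2 odds ratio was 0.10 in place of 1.14 for miR-182 and 0.96 in place of 1.10 for miR-107, so neither reached 2-fold. In addition the intervals excluded 1 below 2-fold for miR-132 (1.58 times), miR-214 (1.31 times) and miR-128 (0.572 times). With the highest rows that of miR-132 was 0.981 times (0.914–1.05), on the other side of 1. The median log2 odds ratio of 21 pairs was 0.19, beside 0.20 for the pairs of other prefixes, and the shares of called members were again near the background.

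Each arm was then compared between libraries on counts scaled by trimmed mean of M values (TMM), to see which arm had moved. In bulk tissue fewer cells of a type and less RNA per cell cannot be told apart, so these ratios are levels of the library, and the scaling shifts both arms of a pair alike. The scaled 5p count of miR-128 in orphan was 0.139 times (0.0888–0.228) that in sibling, whereas the 3p count was 1.76 times (1.64–1.90) it. The arms of this microRNA moved in opposite directions. For miR-18a the 5p ratio was 1.15 (0.750–1.88) and the 3p ratio 0.246 (0.173–0.361). Here only the 3p arm was lower in orphan than in sibling, and non-sibling over sibling gave 0.947 and 0.230. For miR-210 the 5p ratio was 2.36 (1.28–4.94) and the 3p ratio 1.05 (0.818–1.37), so the 5p arm carried the difference.

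For miR-200b the 5p ratio of orphan over sibling was 0.5003 (0.371–0.690) and the 3p ratio 1.11 (1.02–1.20). Orphan over non-sibling gave 0.309 (0.278–0.343) and 0.641 (0.625–0.657), so both arms were lower in orphan than in non-sibling, the 5p arm more so. The 3p arms of miR-221 (0.645) and miR-107 (0.631) were lower in orphan than in non-sibling, while the 5p ratios were 1.81 (1.04–3.37) and 1.37 (0.859–2.29). For miR-182 the 5p ratio of orphan over sibling was 1.67 (1.64–1.70), and the 3p ratio of 0.349 (0.127–1.34) had an interval that included 1.

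**Figure D3:**
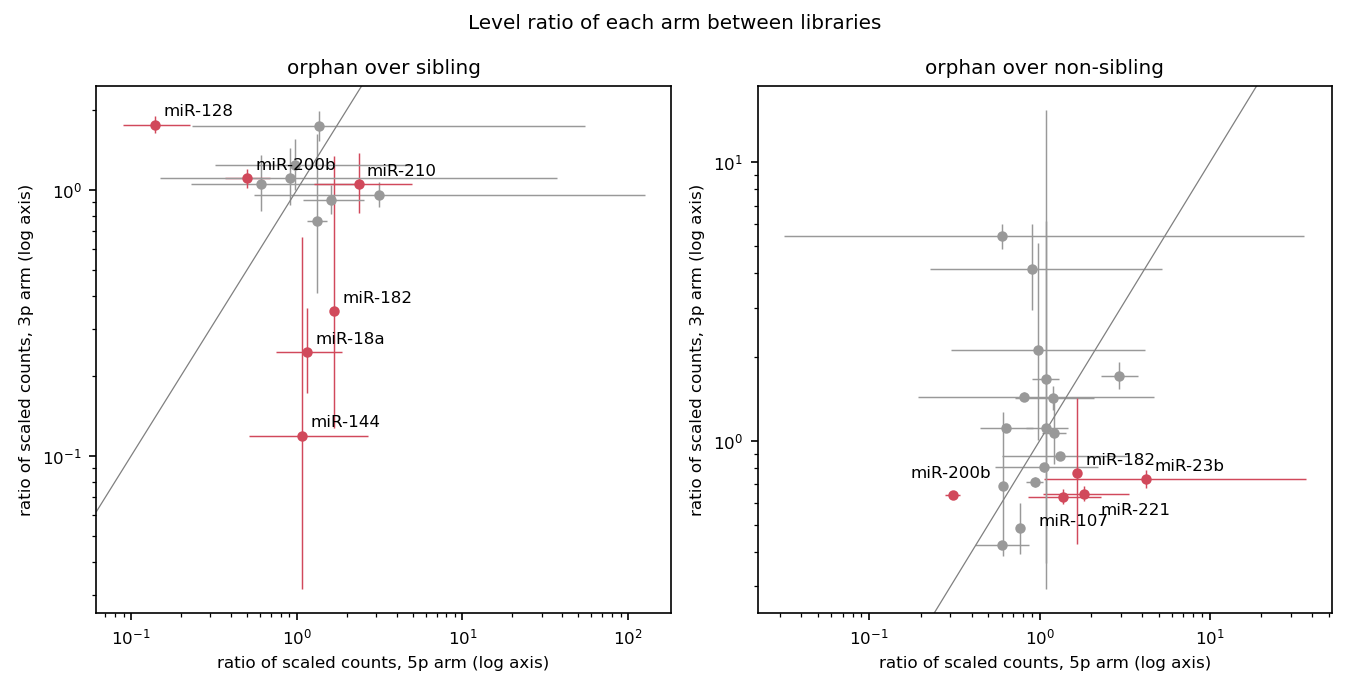
Ratio of TMM-scaled counts between libraries for the 5p arm (horizontal, log axis) and the 3p arm (vertical, log axis) of each member with counts in both arms, with exact conditional 95% intervals; the grey line marks equal ratios and red the pairs called by their odds. On the left miR-128 lies far above the line, with a 5p ratio of 0.139 and a 3p ratio of 1.76, and miR-18a lies below it.

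The members differ in how well the lizard sequence fits the frog. Where another row could be compared, the choice of row changed the share in a few. A Xenopus row of the same name was listed for 26 of the 50 arms, 5 of them 5p and 21 of them 3p. Among the 3p-dominant pairs only miR-363 had a Xenopus row for its minor 5p arm. For arms without such a row, frog reads that the lizard sequence misses could not be seen. The part of such reads in the small minor-arm shares was not tested. For 22 of these arms the anole sequence was identical to a Xenopus row, contained in it, or contained it. Only miR-182, miR-18a, miR-30a and miR-363 had Xenopus rows for both arms, and miR-21, miR-301b and miR-1805 had none. The rows in which a base difference went with a large difference in counts are shown with the seed in capitals.
aca-miR-30a-3p: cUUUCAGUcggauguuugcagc
xtr-miR-30a-3p: cUUUCAGUcagauguuugcagc
aca-miR-132-3p: uAACAGUCuacagccaugguug
xtr-miR-132: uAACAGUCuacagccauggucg
aca-miR-184-3p: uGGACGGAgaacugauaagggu
xtr-miR-184: uGGACGGAgaacugauaaggcu
aca-miR-301b-3p: cAGUGCAAuaauauugucaaagc
dre-miR-301b: cAGUGCAAuaguauugucauug

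Positions are counted from 1 at the 5′ end, with the anole base first. The 3p row of miR-30a differs from the X. tropicalis row by G10A. The X. tropicalis row had 1184, 37 and 171 counts in orphan, sibling and non-sibling where the anole row had 0, 0 and 1. With the Xenopus rows of both arms the 5p share of miR-30a was 95.8%, 90.4% and 96.9%, so its 3p arm took a share of several percent that the anole row does not show. On these rows the 5p odds in orphan were 2.46 times (1.70–3.48) those in sibling and in non-sibling 3.36 times (2.25–4.90). With the highest row of any species for each arm the ratios were 1.99 (1.38–2.80), under 2-fold, and 2.90 (1.95–4.22).

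For miR-132 the 3p rows differ by U21C, and the X. tropicalis row had 4199, 106 and 1620 counts against 236, 10 and 147. With the highest row of any species for each arm, the 5p share was 65.5% in place of 97.1% in orphan, 64.9% in place of 95.1% in sibling and 65.9% in place of 95.5% in non-sibling. The 5p arm was still dominant, and the intervals of the 3 libraries overlapped. For miR-184 the 3p rows differ by G21C, and the X. tropicalis row had 140443, 881 and 3735 counts, 20.1 times the anole row in orphan. The 5p share stayed under 1% with the highest rows (0.127% in orphan). The medaka rows of both arms gave 2.50% in orphan (179 against 6978) and 2.51% in non-sibling (10 against 389). In sibling they had 0 against 64 counts. The medaka 3p row, like the anole one, had far fewer counts than the X. tropicalis row. Set against the X. tropicalis 3p row, the same medaka 5p row gave the 0.127% in orphan above. For miR-363 the X. tropicalis 5p row had 101, 2 and 30 counts against 8, 0 and 3, which puts the 5p share at 0.581%, 0.730% and 0.822%.

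The case of miR-301b stands apart. Its anole 3p row differs from the zebrafish row (dre) by A11G, A20U and A21U, and the zebrafish row had 380, 37 and 246 counts against 11, 0 and 2. With the highest row of any species, which was medaka with 381, 37 and 246 counts, the 5p share was 58.7% in orphan, 17.8% in sibling and 38.0% in non-sibling, so the 3p arm was dominant in sibling and non-sibling. On these rows the 5p odds of miR-301b were 6.58 times (2.97–16.5) as high in orphan as in sibling, 2.84 times (1.26–7.24) as high in non-sibling as in sibling and 2.32 times (1.81–2.97) as high in orphan as in non-sibling, and each passed the rule. Reads of a close paralog of the miR-130 family could be counted under that row, and these data do not separate them. The X. tropicalis entry miR-301 had 18851 counts in orphan, 833 in sibling and 5103 in non-sibling, far above that row. The change of dominant arm and the 3 ratios are uncertain for that reason. In all, 2 members in orphan, 3 in sibling and 2 in non-sibling moved by more than 5 percentage points with the choice of row. The pairs that moved were miR-132, miR-301b and, in sibling, miR-30a. Arms with no other row of the name, such as the 5p arms of miR-128, miR-203 and miR-489, could not move. Their staying in place therefore says nothing on the choice of row.

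**Figure D4:**
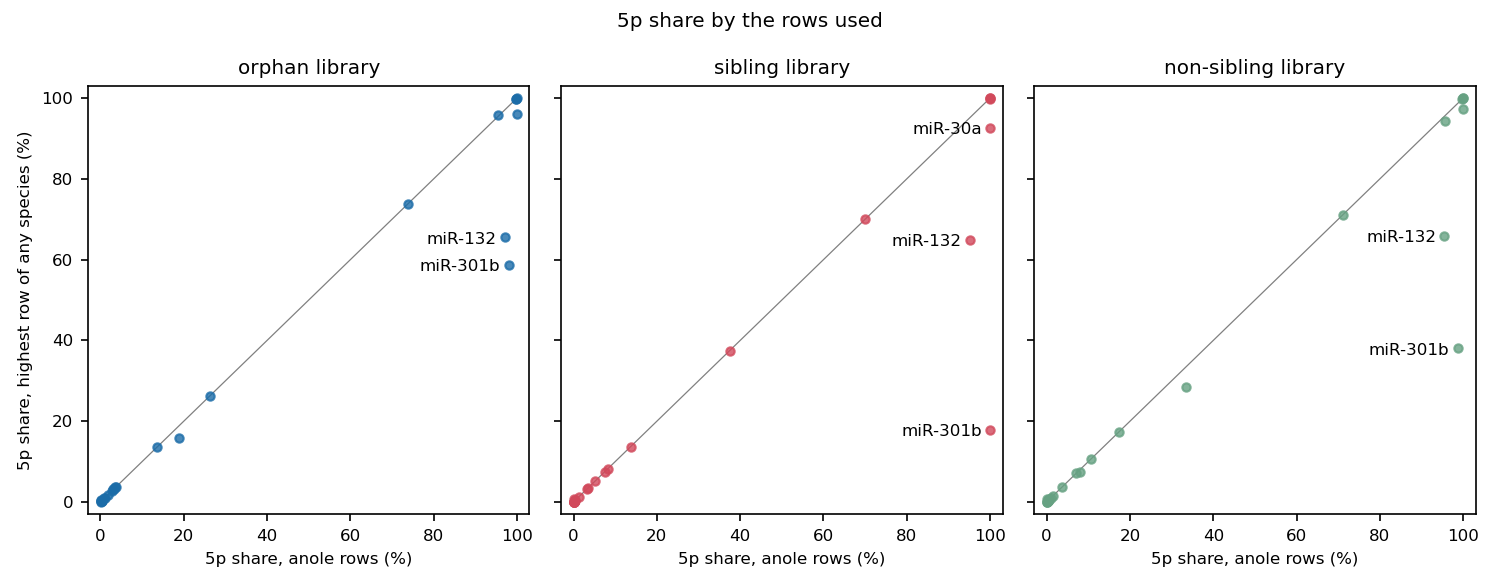
5p share (%) of each member from the anole rows (horizontal) and from the highest row of any species for each arm (vertical), per library; the grey line marks equality, and pairs that moved by more than 5 percentage points are named. Nearly all pairs lie on the line, while miR-132 falls to about 65% and miR-301b to 58.7%, 17.8% and 38.0%. Arms with the anole row alone, or with other rows of the same counts, could not move.

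Arms of the members had 20 to 23 bases and a GC content between 28.6% and 61.9%, with a median of 45.5% for dominant and for minor arms alike. The dominant arm in orphan began with U in 13 pairs, with A in 7, with G in 4 and with C in 1. The minor arm began with U in 7, with A in 7, with C in 6 and with G in 5. In the first 4 bases the dominant arm held more A or U than the minor arm in 10 pairs, the same number in 10 and fewer in 5. The printed arms show both patterns: in miR-128 and miR-200b the dominant 3p arm begins with U, whereas in miR-210 the dominant 3p arm begins with C and the minor arm with A. No test was made on these counts.

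Base composition was set beside the differences between libraries. The arm with the higher GC content was the 3p arm in 18 members and the 5p arm in 5. Over all members, also those with an arm at 0, the 5p share was higher in orphan than in sibling in 15 and lower in 9. It was lower in 4 of those 5 and in 5 of those 18. Where an arm had no count in sibling, any read of it in the deeper orphan library fixed the direction. These counts therefore in part restate which arm was at 0 in sibling. In all 6 pairs called between orphan and sibling the arm with the higher GC content took the larger share in sibling. Its GC content was 57.1% against 47.6% in miR-128 (5p), 50.0% against 36.4% in miR-200b (5p), 54.5% against 43.5% in miR-18a (3p) and 61.9% against 50.0% in miR-210 (3p). In miR-182 the 3p arm was richer with 45.0% against 40.9%, and in miR-144 it was only slightly richer than the 28.6% of the 5p arm. However, the arms of miR-182 and of miR-144 hold equal numbers of G and C bases. Their GC content differs only because the listed 3p arm is shorter, with 20 bases against 22 and 21. The same holds for miR-203 and miR-363 among the 18. Among the 13 pairs with no arm at 0 the richer arm took the larger share in sibling in 10. Between sibling and non-sibling it did so in both called pairs and in 10 of 13. Those called pairs, miR-128 and miR-18a, are among the 6 above, and the sibling counts are the same, so this is not a separate result. Between orphan and non-sibling the richer arm was the larger in non-sibling in 4 of 5 called pairs, miR-23b being the exception, and in 13 of 19 with unequal GC content. The pairs of other prefixes, which in part count the same reads, gave 8 of 9 called and 18 of 27 between orphan and sibling. They gave 4 of 6 called and 17 of 28 between non-sibling and sibling, and 5 of 8 called and 22 of 35 between orphan and non-sibling. Sibling was also the shallowest library. The part of base composition and of depth in the differences of arm share was not tested.

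**Figure D5:**
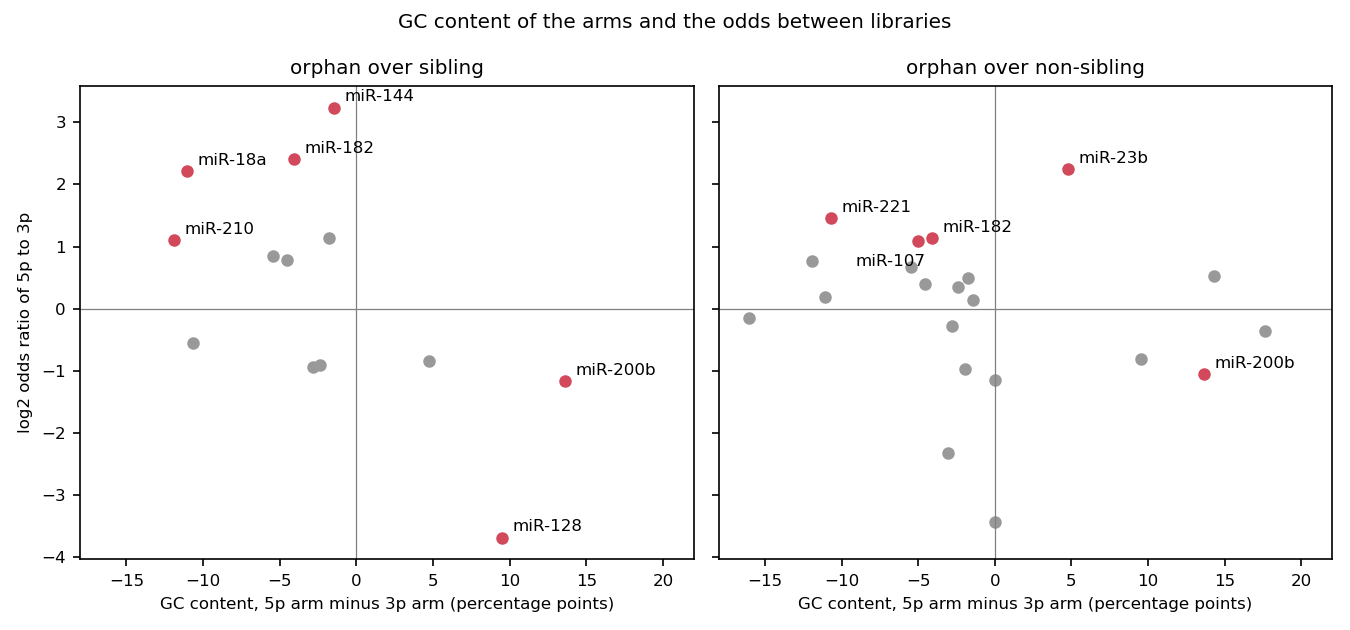
GC content of the 5p arm minus that of the 3p arm (percentage points) against the log2 odds ratio of 5p to 3p between libraries, 1 point per member with counts in both arms of both libraries; red marks called pairs. On the left the 6 called pairs lie either at upper left or at lower right. For miR-182 and miR-144 the GC difference comes from arm length alone.

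The members were also grouped by function. In orphan 17 of the 25 members and 56.5% of the 69 pairs were 3p-dominant, so 3p dominance is not particular to a list. The shares called over all pairs are given with each comparison above. The 2 neuronal members, miR-128 and miR-153, were 3p-dominant in orphan, and miR-128 was called in both comparisons with sibling. The 3 epithelial members, miR-200b, miR-203 and miR-184, were 3p-dominant, and miR-200b was called. Of the 3 members from the miR-17-92 cluster and its paralogs, miR-18a was 5p-dominant and called, and miR-19a and miR-363 were 3p-dominant and not called. The 2 mesenchymal members, miR-143 and miR-214, were 3p-dominant and not called. The pair of the blood and vessel list split, with miR-221 on 3p and miR-144 on 5p, each called in 1 comparison. The sensory organ member miR-182 was 5p-dominant and called in both comparisons of orphan. The 3p-dominant miR-23b was called for orphan over non-sibling. On the anole rows let-7i and miR-30a were 5p-dominant and not called. Activity-regulated miR-132, which neurons induce on stimulation, was called in none of the 3 comparisons on either choice of rows.

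Pairs that X. tropicalis lists but the anole does not include some that are more evenly balanced than most members. In miR-126, of vessel endothelium, the 5p share was 60.6% in orphan, 72.0% in sibling and 53.7% in non-sibling. For the mesenchymal miR-199a it was 34.1%, 25.0% and 30.8%. In orphan 4 of the 25 members had a minor arm above 10%, namely miR-210, miR-18a, miR-153 and miR-214. Among the other 44 pairs the part above 10% was larger. The median minor arm in orphan was 1.84% for the members and 4.17% for those pairs.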

How the data were processed

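MicroRNA reads were counted in 3 libraries, 1 per rearing condition, grouped by title. The read counts are whole numbers per mature entry without normalization, per the file headers. The table also holds a signal deposited by the authors, quantile-normalized counts, used as an alternative, and the deposited log2 ratios of it, not used here. The aligner, counting tool, microRNA release and genome build were not given in the sources used here. 1 unnamed line was left out.

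Shares have Clopper-Pearson and odds ratios exact conditional 95% intervals (Python 3.11.15, numpy 2.4.6, pandas 2.3.3, scipy 1.17.1; plots matplotlib 3.10.9), tested on simulated data. The simulated pairs had moderate shares and capped counts at the orphan and non-sibling depths. Sibling depth and nearly one-armed pairs were therefore not covered by it. Log2 odds ratios have 0.5 added to each count. Arm levels used TMM factors of 0.966 (orphan), 0.817 (sibling) and 1.27 (non-sibling) from entries with a sum of at least 30 (edgeR 4.0.16, R 4.3.3). A count of 0 was taken to allow up to 3 counts, the rule behind shares given as at most or up to. The 95% Clopper-Pearson upper ends are higher, in sibling 0.264% for miR-143, 1.06% for miR-30a and 4.99% for miR-107. PCR reads are not independent molecules.

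Members and lists were chosen with earlier results of these data known. The rule for named pairs took the 10 with the most counts, up to 5 called per comparison and direction with a sum of at least 150, orphan shares between 20% and 80%, dominant arms off the guide list, up to 4 per function list, and those beside the minimum sum; it named 23 of 25 members, and miR-148b and miR-489 were added to account for all. Alternatives changed the minimum sum, rows, fold, added count, dominance rule and values.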

Additional observations from a re-analysis of the deposited data

How the results depend on the processing

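Of 150 values that sum up the pairs under the alternatives, 132 stayed within 1.5 times of the reported count and 18 did not. A value for a single pair was counted as staying where it lay inside the interval of its main result. Where an arm had no count the interval of the odds ratio was open-ended, so large changes could also count as staying. The log2 odds ratio of miR-30a, orphan over non-sibling, did so although it went from 3.93 to -0.54 with the highest row of any species. By this rule, of 438 values for single pairs, 411 stayed, 25 moved and 2 reversed. The reversals were the 5p share of miR-301b with the highest row of any species, 17.8% in sibling and 38.0% in non-sibling. Pairs with neither arm dominant in non-sibling (1) became 0 with a minimum sum of 100, 2 with no minimum, 0 on quantile-normalized values and 0 without miR-128 and miR-153, whose arms are listed under different loci; in sibling (3) they became 0 on quantile-normalized values, which carry no interval. On those values the called pairs were 12 higher and 5 lower for orphan over sibling (4 and 2), 10 and 6 for non-sibling over sibling (1 and 1), and 2 lower for orphan over non-sibling (1); there the call needed only a 2-fold ratio, and for orphan over non-sibling miR-200b, miR-182 and miR-107 no longer reached it. The highest row gave 3 higher for non-sibling over sibling, and Xenopus rows where both arms have one gave 2. A ratio of 1.5 gave 2 lower for orphan over non-sibling; a ratio of 3 gave 1 lower for orphan over sibling, and 1 higher and 0 lower for orphan over non-sibling (4 and 1). Without the pairs of different loci 1 was lower for orphan over sibling and 0 for non-sibling over sibling. The alternatives on Xenopus rows and on different loci were chosen after seeing the data. No paired analysis was possible because each condition has 1 library, and no replicate could be left out. Sibling depth limits every comparison with it.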
